A study of Mus musculus with 16 samples.

Results

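Eif4a1, Eif4g2, Pum2 and Ddx6 are 4 genes whose proteins act on messenger RNA in the cytoplasm, either at the start of translation or in its repression and decay. They were followed across all libraries of a crosslinking study of PGC-1α, a transcriptional coactivator of fasting metabolism in liver that also carries RNA-binding motifs. The genes were picked because earlier readings of the same libraries placed them among bound RNAs, so their enrichment is described here and not tested. Every region of piled-up reads (cluster) whose midpoint lay inside 1 of the 4 genes on the same strand was taken, within GENCODE M21 gene bounds on mm10. This gave 1020 of 1331383 clusters. The 4 genes are among 10872 protein-coding genes with at least 1 cluster.

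The RNA came from primary hepatocytes of C57BL/6J mice, put through single-end enhanced crosslinking and immunoprecipitation (seCLIP), in which ultraviolet light at 254 nm and 400 mJ/cm2 ties RNA to bound protein. Control cells were untreated. Glucagon cells, after a night of starvation, were exposed for 3 h to glucagon, a hormone that rises in fasting, at 200 nM. The labels do not say whether control cells were starved as well. A library was made from a lower or an upper band, which the labels do not describe further, with 2 replicates of each treatment and band, giving 8 immunoprecipitated libraries in 4 groups. Whether a replicate is its own culture or animal is not stated, so p-values cover the spread among libraries only, and that spread may be technical.

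Libraries held 26279 to 260814 clusters, and read depth is unknown. The smallest was glucagon lower band replicate 1, and the next had 97629. Of 8 hepatocyte marker genes 7 were matched, all with clusters (3414 in all), among them Alb with 750 and Cps1 with 1277. Kupffer, endothelial and stellate markers had clusters in 1 of 6 genes each, with 5, 1 and 6 clusters. Cholangiocyte markers had them in 2 of 6, Spp1 with 16 and Sox9 with 7.

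By way of background, translation of most messenger RNAs starts when the eIF4F complex binds the cap. Eif4a1 encodes eIF4A1, the DEAD-box helicase of that complex, which unwinds structure ahead of the ribosome. Eif4g2 encodes DAP5, a relative of the scaffold eIF4G that lacks the binding site for the cap-binding protein eIF4E and serves other routes of initiation. Pum2 encodes a Pumilio protein that binds short motifs in 3′ untranslated regions (UTRs) and recruits deadenylases, enzymes that shorten poly(A) tails. Ddx6 encodes a DEAD-box helicase of processing bodies that joins deadenylation to decapping and translational repression. Eif4a1 and Eif4g2 also host small nucleolar RNAs (snoRNAs), stable nuclear RNAs that are cut out of spliced introns.

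Some of the bound stretches are shown here, from the first intron or alternative first exons, with a snoRNA of Eif4a1 that lay below input. Only stretches inside GENCODE transcripts or RefSeq promoter windows could be printed. Eif4a1 site 2, the Ddx6 sites and the other intronic sites of Eif4g2 and Pum2 are therefore not shown. Capitals mark runs of at least 3 G. Sequences are 5′ to 3′ on the gene's strand, from GENCODE M21 transcripts, except Pum2 site 2, which is from RefSeq on GRCm38.p6, the assembly that mm10 holds. For the 2 pieces from 5′ UTRs 30 bases are given, from the middle of Eif4g2 site 3 and from the middle of the strongest listed peak in Pum2 site 3 (chr12:8674729-8674787). Sites are numbered from the 5′ end of each gene.
Eif4a1 site 5, chr11:69671207-69671354, minus strand: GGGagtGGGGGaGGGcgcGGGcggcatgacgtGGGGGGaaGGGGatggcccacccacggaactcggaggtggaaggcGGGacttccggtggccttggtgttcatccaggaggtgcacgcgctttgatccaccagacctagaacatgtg
Eif4a1 site 6, chr11:69671064-69671145, minus strand: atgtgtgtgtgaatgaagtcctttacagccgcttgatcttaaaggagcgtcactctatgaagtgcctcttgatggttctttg
Eif4a1 site 7, chr11:69670983-69671058, minus strand: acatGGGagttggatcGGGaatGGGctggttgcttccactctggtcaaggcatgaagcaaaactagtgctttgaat
Eif4g2 site 3, chr7:111082102-111082131, minus strand: ccatgttgtgttgtggccccggccttccgg
Pum2 site 2, chr12:8674599-8674633, plus strand: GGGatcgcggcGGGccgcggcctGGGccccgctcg
Pum2 strongest listed peak, chr12:8674743-8674772, plus strand: gtgaccagatccgtgtGGGtgccaggcggc
Gm25835, a snoRNA in Eif4a1, chr11:69668852-69668995, minus strand: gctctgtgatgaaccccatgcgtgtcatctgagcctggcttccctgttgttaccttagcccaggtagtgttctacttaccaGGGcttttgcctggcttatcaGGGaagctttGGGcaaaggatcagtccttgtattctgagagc

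The bound stretches shown differ in base composition. Site 5 of Eif4a1 is 43.2% G with 7 runs of at least 3 G (GGG), the longest of 6 G, while site 6 has no such run and a GC content of 43.9%. The readable parts of sites 3 and 4 of Eif4a1, not shown above, have 3 runs in 67 bases and 1 run in 62 bases. Their GC contents are 62.7% and 77.4%. Pum2 site 2 has 3 runs in 35 bases and a GC content of 88.6%. The snoRNA Gm25835 also has 3 runs, in 144 bases, with a GC content of 51.4%. For comparison, runs of 3 G are common around gene starts, although those windows are not intronic. Among the last 148 bases of 32851 RefSeq promoter windows, which end 50 bases into the gene, 87.1% hold at least 1 run on the gene's strand and 97.2% on either strand. At least 7 runs were found in 9.42% of them. In the 3′ part of the first intron of Eif4a1 (474 nt, chr11:69670977-69671450), GC content was 59.5% over the 368 bases under a reproducible peak and 59.4% over the other 106.

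All 4 genes carried peaks at their 5′ ends and nearly nowhere else. An enriched peak is a cluster that reaches 3 on both deposited scales, the −log10 p and the log2 fold over input. The 4 genes held 149 enriched peaks over the 8 libraries, or 96 in Eif4a1, 7 in Eif4g2, 23 in Pum2 and 23 in Ddx6. Libraries held 979 to 7603 enriched peaks in all, fewest in glucagon lower band replicate 1 and next fewest (2816) in replicate 2 of that group. Of all 1331383 clusters, 2.7% were enriched. The members were chosen on this measure, so nothing is read from the contrast. Position was not part of the choice. Of the 149 enriched peaks, 147 (98.7%) had their midpoint within 1500 nt of the annotated 5′ end, against 23.0% of all clusters in the same genes. Over all protein-coding genes 28.5% of enriched peaks and 8.59% of clusters lay that close. By gene, 96 of 96 enriched peaks and 1 of 45 other clusters lay that close in Eif4a1, 7 of 7 and 40 of 133 in Eif4g2, 21 of 23 and 27 of 437 in Pum2, and 23 of 23 and 20 of 256 in Ddx6. Without Eif4a1 the count was 51 of 53 (96.2%), and without the smallest library it was 139 of 140 (99.3%). The same places recur across libraries, and the listed peaks of the 4 genes merge into 19 sites. The 149 are therefore not separate places.

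**Figure D1:**
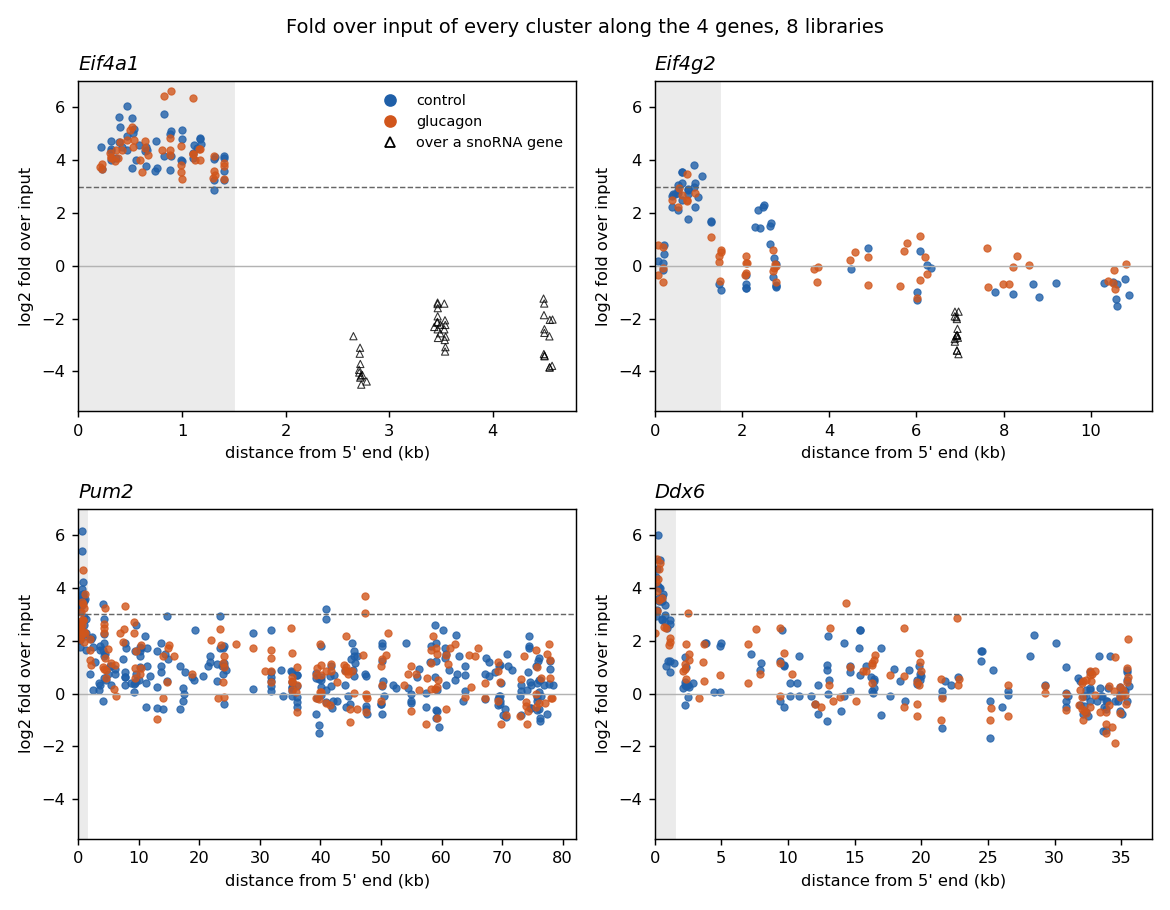
Log2 fold over input (vertical axis) of every cluster in the 4 genes against distance of its midpoint from the 5′ end in kb (horizontal axis), all 8 libraries. Blue points are control, orange points are glucagon, open triangles are clusters over a snoRNA gene, the grey band covers the first 1500 nt and the dashed line marks a log2 fold of 3. Points above the dashed line gather in the grey band, and the triangles lie below 0.

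Both exceptions were in Pum2 and in glucagon lower band libraries. The one in replicate 1 lay 47281 nt from the 5′ end (chr12:8721388-8721441, log2 fold 3.69) and the one in replicate 2 lay 4426 nt from it (chr12:8678505-8678615, 3.24). Both are intronic. Neither was in a reproducible list. The 1500-nt limit was chosen after the positions were seen. Within 1000 nt the share of the enriched peaks was 77.2%, and within 2000 nt it was 98.7% again.

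The authors' reproducible lists, 1 per treatment and band, were drawn from the same libraries, so they are no second line of support. They held 72 peaks in the 4 genes out of 8478 (0.849%), and every one of the 72 lay within 1500 nt of the 5′ end. Eif4a1 supplied 47 of the 72, and the same place can recur in several lists. Over all protein-coding genes 38.7% of 7468 listed peaks did, or 27.6% within 1000 nt and 43.4% within 2000 nt. Among 1170 genes with a listed peak, 43.3% had all of theirs within that distance, so the pattern was shared by 507 genes. The median distance over the listed genes was 4076 nt.

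**Figure D2:**
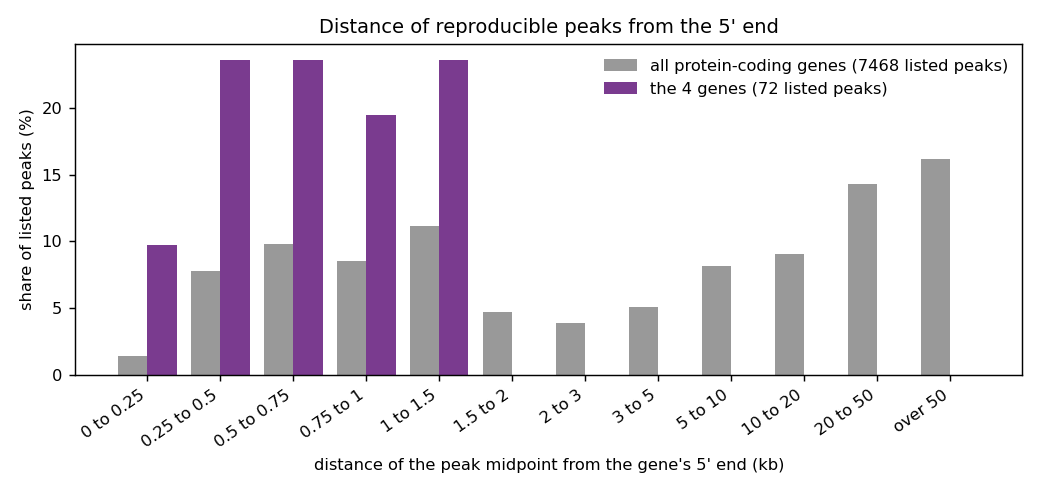
Share of reproducible peaks in percent (vertical axis, bars from 0) by distance of the midpoint from the 5′ end of the gene in kb (horizontal axis, unequal bins). Grey bars are all protein-coding genes (7468 listed peaks) and purple bars the 4 genes (72 listed peaks), whose bars stop at 1.5 kb.

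Pooled over the 4 genes, enriched peaks were intronic more often than other clusters, but the genes differed. All 23 enriched peaks of Ddx6 were intronic, against 46.5% of its other 256 clusters, and the share of enriched peaks was higher in each of the 7 libraries that had any. In Eif4g2 5 of 7 were intronic, against 31.6% of 133 other clusters, higher in 3 of 4 libraries. In Pum2 the shares were 60.9% and 62.5%, without an excess. In Eif4a1 both were 100%, since no cluster had its midpoint in coding sequence or UTR, so no excess could show.

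The pooled intronic share per library was 93.7% ± 5.96 of enriched peaks and 53.2% ± 8.37 of other clusters (SD, n = 8 libraries). The difference of 40.5 ± 12.9 points (SD) was positive in 8 of 8 libraries, and an exact two-sided sign-flip test gave p = 0.00781, the smallest that 8 libraries allow. Eif4a1 supplied 96 of the 149 enriched peaks and 45 of the other clusters, so the pooled value also compares genes with each other. Taken within genes, each gene with an enriched peak weighted equally, the difference was 21.5 ± 11.7 points (SD), positive in 7 of 8 libraries (exact sign-flip p = 0.0156, n = 8). When exons of noncoding transcripts (retained introns and processed transcripts) also counted as exons, the pooled difference was 19.6 points with p = 0.00781 by the exact test. The same sites recur across libraries, and whether a site is intronic does not vary between them. These p-values therefore cover the spread among libraries and not how many separate places are intronic. An intronic excess was known from earlier results of these data, so the values are no independent support for it. Nor is it a finding separate from position. Of the 149 enriched peaks 147 lay within 1500 nt of the 5′ end, a stretch that is mostly first intron in Eif4a1 and Ddx6. Enriched peaks and other clusters inside that stretch were not compared by region.

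The enriched peaks outside introns were 9 in Pum2 and 2 in Eif4g2, all in 5′ UTR. No enriched peak of the 4 genes had its midpoint in coding sequence or 3′ UTR. Clusters that were not enriched did reach those parts, with 112 of 437 in coding sequence in Pum2, 61 of 133 in Eif4g2 and 45 of 256 in Ddx6. In the 3′ UTR there were 32, 11 and 79 of them.

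Eif4a1 (ENSMUSG00000059796.16, chr11:69666936-69672423, minus strand) was the most densely bound of the 4. It had 47 listed peaks, or 8.56 per kb of gene, and none of the other 1169 listed genes had more per kb. In number of listed peaks 18 genes had more, and in highest listed log2 fold (5.55) 13 had more. The median over listed genes was 2.5 listed peaks and a highest log2 fold of 3.87. Its listed peaks numbered 11 in control lower band, 13 in control upper band, 11 in glucagon lower band and 12 in glucagon upper band. A peak in all 4 lists was found in 0.754% of protein-coding genes with a cluster.

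The peaks of Eif4a1 filled the first intron of its coding transcript. That intron runs from 69670977 to 69672278 (1302 nt) in the coding transcript Eif4a1-213, and the listed peaks together covered 1051 bases. Merged where they shared a base, they formed 7 sites, and sites 2 to 5 held an enriched peak in all 8 libraries. Over the whole series 2.22% of 5128 sites merged in this way did. Of the 97 clusters within 1500 nt of the 5′ end, 96 were enriched. By their midpoints, the listed peaks of sites 4 to 7 and some of site 3 also lie in exons of noncoding transcripts of Eif4a1. They are intronic only with respect to its coding transcript.

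**Figure D3:**
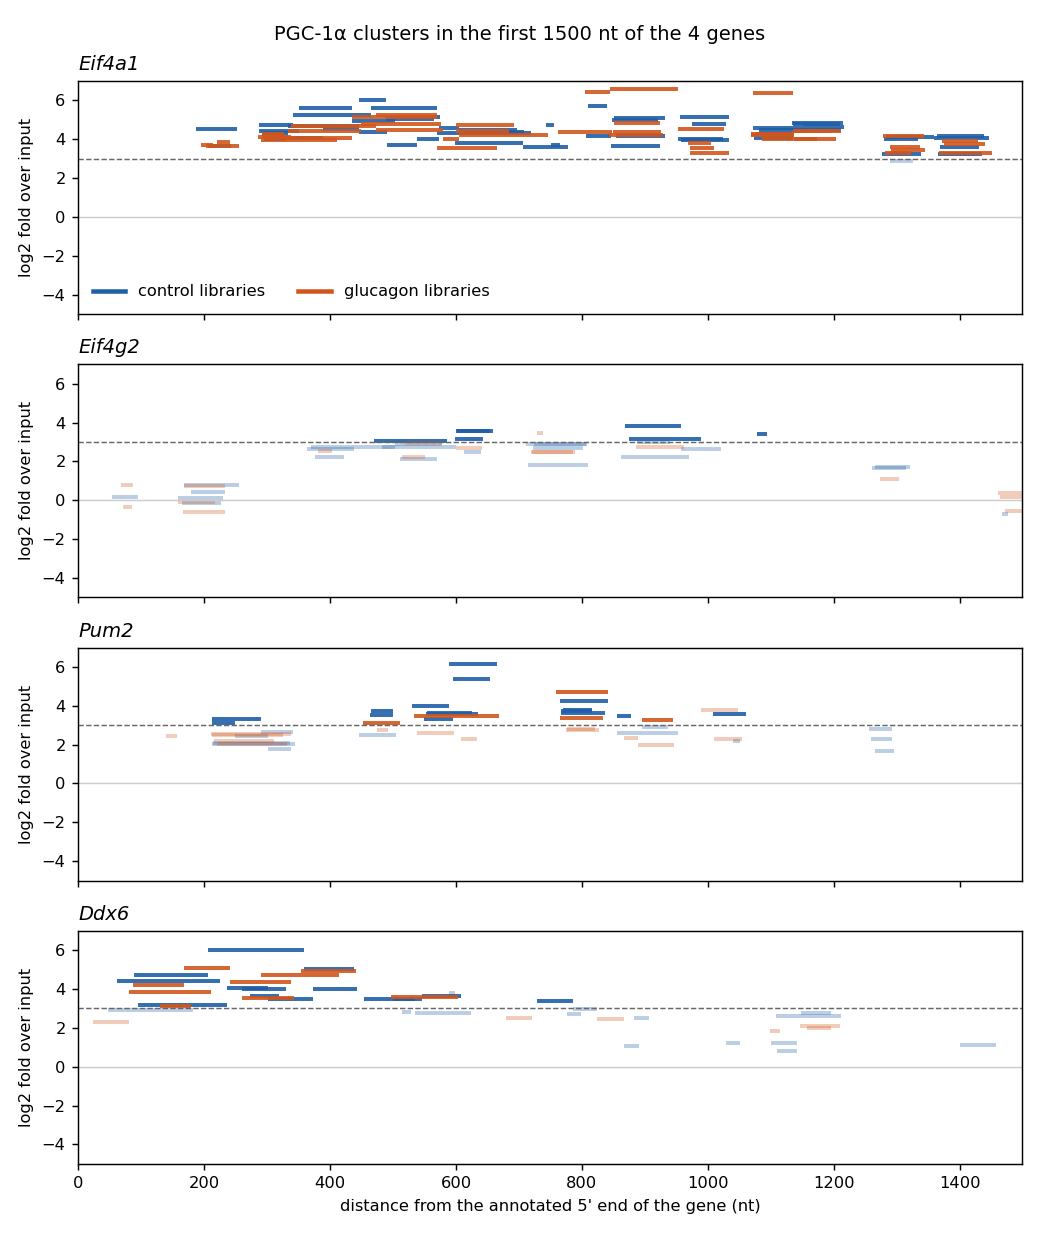
Clusters in the first 1500 nt of each gene, drawn as bars from their start to their end at their log2 fold over input (vertical axis) against distance from the 5′ end in nt (horizontal axis). Blue is control, orange is glucagon, faint bars did not reach both thresholds and the dashed line marks a log2 fold of 3. Eif4a1 is enriched across nearly the whole stretch, Pum2 mainly in its first 1000 nt, and Ddx6 next to the 5′ end.

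The longest stretch of Eif4a1 was site 2 (chr11:69671704-69672137, 434 nt), with 20 listed peaks and the highest listed log2 fold of the gene (5.55). Its best log2 fold in the control was 5.62 and 5.62 in lower band replicates 1 and 2, and 6.05 and 4.69 in upper band replicates 1 and 2. Glucagon libraries gave 5.27 and 4.68 (lower band) and 5.13 and 4.78 (upper band). The groups overlapped, with means of 5.50 ± 0.57 and 4.97 ± 0.28 (SD, n = 4 each).

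Site 5 (148 nt), the G-rich stretch shown above, gave 4.46 and 4.61 in control lower band replicates 1 and 2 and 4.83 and 4.81 in the upper band. Glucagon libraries gave 4.003 and 6.37 (lower band) and 4.25 and 4.43 (upper band). One library, glucagon lower band replicate 2, stood above all others, and the remaining glucagon libraries lay below the control. Sites 6 and 7, next to the second exon, were lower, with 2.87 to 4.17 wherever a cluster was present. Site 3 held the highest value of the gene, 6.61, in glucagon upper band replicate 2. Site 1, nearest the first exon, was enriched in 5 libraries and had no cluster in the other 3. None of the 7 sites separated control from glucagon.

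The coding sequence and UTRs of Eif4a1 held no cluster midpoint. All 141 clusters of the gene fell into the first 1500 nt (97) or over its 3 snoRNA genes (44), and 0 of 141 had a midpoint in coding sequence or UTR, with 2 touching an exon by at least 1 base. Among 3492 protein-coding genes with at least 100 clusters, 0.916% had no midpoint in coding sequence or UTR, and the median share there was 23.7%. The share was 66.4% in Eif4g2, 37.6% in Pum2 and 49.1% in Ddx6. The annotation holds a processed pseudogene of the eIF4A family (Eif4a-ps4), and how reads that match several places were handled is not given in the sources used here. Its exonic count is therefore uncertain.

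The 3 snoRNAs of Eif4a1 lay far below input. Gm22988 (chr11:69669635-69669778) had 11 clusters with a log2 fold of −4.50 to −2.66. Gm25835 had 19, from −3.24 to −1.39, and Gm24029 (chr11:69667834-69667976) had 14, from −3.85 to −1.24. In Eif4g2 the snoRNA Gm23262 (chr7:111076060-111076227) had 15 clusters, from −3.34 to −1.73. Each of the 4 had clusters in all 8 libraries, and 0 of their 59 clusters was enriched or listed. Within Eif4a1 the median log2 fold per library was 3.89 to 4.61 in the first 1500 nt and −3.79 to −1.73 beyond it. These snoRNAs and the peaks lie in different introns of 1 gene, so the clusters of Eif4a1 split into a group above and a group below input, with no library where they met.

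Eif4g2 (ENSMUSG00000005610.17, chr7:111067750-111083030, minus strand) was the weakest of the 4. Its highest listed log2 fold was 3.31, and 991 of the 1170 listed genes were higher. Its 4 listed peaks formed 3 sites between 470 and 957 nt from the 5′ end. Sites 1 and 2 lie in the first intron of Eif4g2-213 (111081634 to 111082784), and site 3 lies in the alternative first exon of Eif4g2-201 (111082028 to 111082195), annotated as 5′ UTR.

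Enriched peaks of Eif4g2 were seen in control libraries only. There were 1 and 4 in control lower band replicates 1 and 2, 1 and 1 in the upper band, and 0 in each of the 4 glucagon libraries. Fewer enriched peaks in every glucagon than in every control library were found in 2.29% of 2877 genes, and more in 0.243%. Of 602 genes with an enriched peak in every control library, 4.98% had none with glucagon. Since Eif4g2 was chosen with its peaks in view, these counts are a description.

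Glucagon clusters at the Eif4g2 sites were short of the threshold or missing. Site 2 (chr7:111082371-111082431) gave 3.14 and 3.55 in control lower band replicates 1 and 2 and 2.49 and 3.57 in the upper band. With glucagon it had a cluster in upper band replicate 2 alone (2.67). Site 3 gave 2.99 and 3.82, then 3.15 and 2.22 in the control, and 2.76 in that same glucagon library. Site 1 gave 2.88 and 3.07, then 2.10 and 2.75 in the control, and 2.24 and 2.95 in glucagon upper band replicates 1 and 2. At a log2 fold of at least 2, with the same p threshold, the count was 23 in control and 7 in glucagon libraries. The latter were all from the upper band, and at 4 it was 0 in both. Neither glucagon lower band library had a cluster at any of the 3 sites. Replicate 1 had a cluster between sites 2 and 3 (chr7:111082292-111082301) at 3.47, which failed on the p-value alone. That fold was above the best of control lower band replicate 1 (3.14) and upper band replicate 1 (3.15). It was below those of control lower band replicate 2 (3.82) and upper band replicate 2 (3.57). The glucagon lower band libraries held 26279 and 188011 clusters in all, of which 979 and 2816 were enriched. The control lower band libraries held 132622 and 178308, of which 4110 and 5694 were enriched. Upper band libraries held 3288 and 7603 enriched peaks with glucagon and 4929 and 6523 in the control. The part of these library totals in the Eif4g2 counts was not tested. Clusters in the whole gene, enriched or not, numbered 14, 26, 17 and 18 for control and 13, 22, 15 and 15 for glucagon libraries, in the same order.

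**Figure D4:**
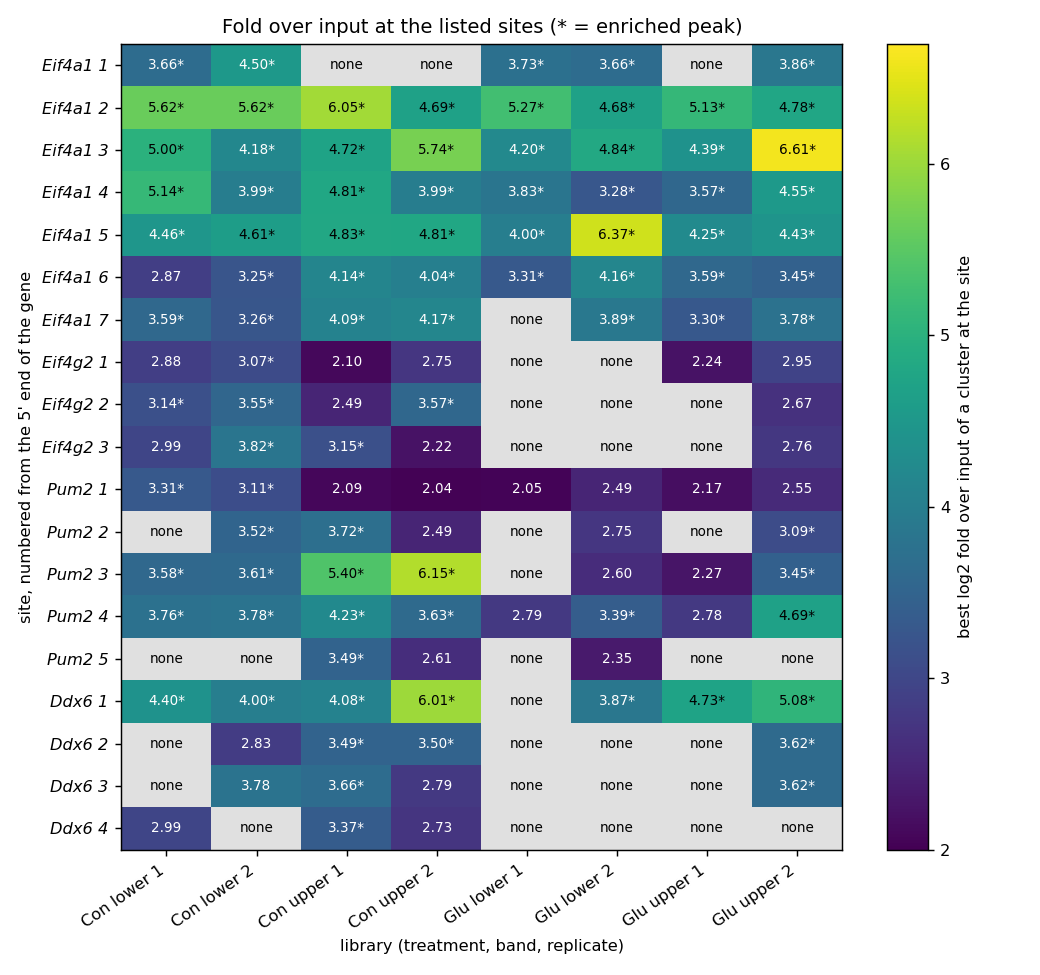
Best log2 fold over input of a cluster at each of the 19 sites (rows, numbered from the 5′ end of each gene) in each of the 8 libraries (columns, Con for control and Glu for glucagon, with band and replicate). Colour and number give the log2 fold, an asterisk marks an enriched peak and grey cells had no cluster. Sites 2 to 5 of Eif4a1 have an asterisk in all 8 columns, and the Eif4g2 sites have none in the glucagon columns.

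Pum2 (ENSMUSG00000020594.14, chr12:8674134-8752581, plus strand) is the longest of the 4 and had the single highest listed log2 fold among them, 5.71, at chr12:8674729-8674787 in the control upper band. In the 1170 listed genes 6 reached a higher value. Its 10 listed peaks formed 5 sites between 213 and 877 nt from the 5′ end, where several transcripts start at different first exons. Sites 1 and 3 fall in such 5′ UTR exons. Sites 2, 4 and 5 lie between or after them.

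Site 3 of Pum2 (chr12:8674664-8674802) was higher in every control than in every glucagon library. The control gave 3.58 and 3.61 in lower band replicates 1 and 2 and 5.40 and 6.15 in the upper band. Glucagon lower band replicate 1 had no cluster there and replicate 2 gave 2.60, and the upper band gave 2.27 and 3.45. It was 1 of the 19 sites of the 4 genes to separate in this direction, with 0 in the other. Over the whole series 5.77% of 5128 sites were lower in every glucagon library and 0.527% higher, with an absent cluster counted as lowest. A share of 1 in 19 is close to that background.

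Site 4 of Pum2 (chr12:8674894-8674975), further downstream, did not separate the treatments. Control libraries gave 3.76, 3.78, 4.23 and 3.63, and glucagon libraries 2.79, 3.39, 2.78 and 4.69. The highest value was a glucagon library. Site 1 had clusters in all 8 libraries, between 2.04 and 3.31, and reached the threshold in both control lower band libraries alone. Control libraries held 3, 4, 5 and 4 enriched peaks over the gene and glucagon libraries 1, 3, 0 and 3, so the groups met at 3. With a log2 fold of at least 4 the totals were 3 and 1.

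Away from its 5′ end Pum2 was covered by clusters of lower fold. Of its 460 clusters 412 lay beyond 1500 nt, with a median log2 fold per library of 0.46 to 2.05 (the highest in the smallest library), against 2.36 to 3.42 within it. Its 3′ UTR, the part of a messenger RNA where Pumilio proteins themselves bind, held 32 clusters and no enriched peak.

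Ddx6 (ENSMUSG00000032097.10, chr9:44604892-44640731, plus strand) was bound at the very start of its first intron, which begins at 44604953 or 44604985 by transcript and ends at 44607122. Its 23 enriched peaks lay 127.5 to 757.5 nt from the 5′ end, the closest of the 4 genes. The 11 listed peaks had a highest log2 fold of 5.49 and formed 4 sites. Sites 2 and 3 adjoin (44605437 and 44605438), and 1 cluster of glucagon upper band replicate 2 spans both.

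Site 1 of Ddx6 (chr9:44604954-44605330, 377 nt) was enriched in 7 of 8 libraries. It gave 4.40 and 4.004 in control lower band replicates 1 and 2 and 4.08 and 6.01 in the upper band. With glucagon it had no cluster in lower band replicate 1, the smallest library, and gave 3.87 in replicate 2 and 4.73 and 5.08 in the upper band. The groups overlapped, at 4.63 ± 0.94 (SD, n = 4) and 4.56 ± 0.62 (SD, n = 3). The other 3 sites had clusters in 3 or 4 libraries, between 2.73 and 3.78. With glucagon sites 2 and 3 had a cluster in upper band replicate 2 alone and site 4 had none.

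Enriched peaks of Ddx6 numbered 2 and 1 in control lower band replicates 1 and 2 and 7 and 4 in the upper band. Glucagon libraries had 0 and 2 (lower band) and 2 and 5 (upper band). The control upper band libraries were above both control lower band libraries, and the glucagon bands met at 2. The reproducible lists had 2, 6, 0 and 3 peaks of Ddx6 in the same order of groups. Ddx6, Pum2 and Eif4g2 were all absent from the glucagon lower band list, which held 0.966% of protein-coding genes with a cluster. The control lower, control upper and glucagon upper lists held 5.56%, 8.38% and 6.14%. Inside Ddx6 lies E030022I16Rik, a transcript still to be experimentally checked, with 18 clusters, a highest log2 fold of 3.44 and no enriched peak.

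The weakest enriched peaks and the strongest clusters left out were close together in each gene. The lowest log2 fold inside the threshold was 3.25 in Eif4a1, 3.07 in Eif4g2, 3.09 in Pum2 and 3.12 in Ddx6. The highest just outside was 2.87, 2.99, 2.91 and 2.93. Some clusters with a higher fold failed on the p-value, with 5 in Pum2, 3 in Ddx6 and 1 in Eif4g2.

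The share of all clusters of a library that fell in each gene was compared between treatments and bands in a design too small to pass 0.05. It counts every cluster, enriched or not, per 10000 clusters of the library. Eif4a1 had 1.43, 1.01, 0.750 and 0.728 in the control (lower band replicates 1 and 2, upper band replicates 1 and 2). Its glucagon libraries had 4.95, 1.06, 1.64 and 0.867. Eif4g2 had 1.06, 1.46, 0.708 and 0.690, then 4.95, 1.17, 1.54 and 0.722. In both genes the value of 4.95 is the smallest library, where 13 clusters of 26279 were counted, and the other libraries overlapped. Pum2 ranged from 3.22 to 3.87 over control and from 3.23 to 4.57 over glucagon libraries. Ddx6 had 1.79 to 2.34 and 1.81 to 3.38. No gene of the 4 separated the treatments or the bands completely. Over all protein-coding genes with a cluster 7.2% were lower and 2.85% higher in every glucagon library, and 1.09% were higher and 0.828% lower in every upper band library.

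**Figure D5:**
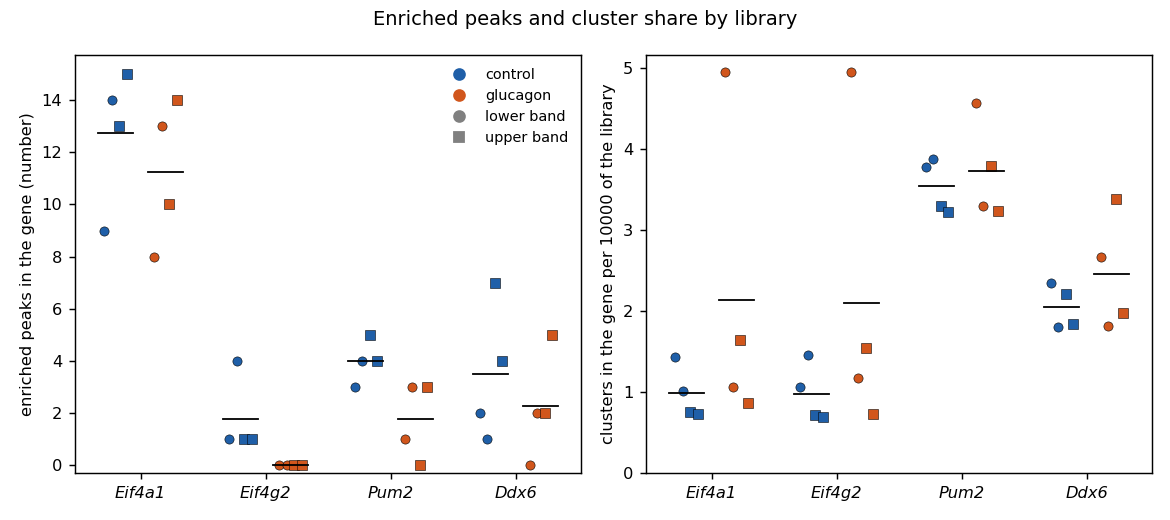
Number of enriched peaks (left) and clusters per 10000 clusters of the library (right) in each gene, 1 point per library. Blue is control, orange is glucagon, circles are the lower and squares the upper band, and black lines are means of 4 libraries. Eif4g2 has 0 enriched peaks in every glucagon library, and the points at 4.95 on the right are the smallest library.

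Glucagon minus control, the mean difference within bands was 1.15 clusters per 10000 in Eif4a1 (exact permutation p = 0.222, adjusted p = 0.356), 1.12 in Eif4g2 (0.222 and 0.356), 0.18 in Pum2 (0.611 and 0.611) and 0.41 in Ddx6 (0.333 and 0.444). Upper minus lower band, within treatments, the difference was −1.12 in Eif4a1, −1.24 in Eif4g2, −0.49 in Pum2 and 0.20 in Ddx6, with exact permutation p of 0.222, 0.222, 0.167 and 0.611. The adjustment was by Benjamini-Hochberg over the 8 tests, and 36 assignments of labels cannot give a two-sided p under 0.0556, so no difference of any size could have passed. Without the smallest library the Eif4a1 and Eif4g2 differences between treatments were 0.18 and 0.17.

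Other initiation factors were listed about as often as other genes. Leaving out the 2 members, 7 of 52 with a cluster (13.5%) had a listed peak, against 10.8% of all protein-coding genes with a cluster, and 2 of the 7 had all of them within 1500 nt of the 5′ end. Eif5a, a factor that helps the ribosome through difficult peptide bonds, had 15 listed peaks in all 4 lists, up to 5.31, between 970 and 1687 nt from the 5′ end. Eif4b, which stimulates the eIF4A helicase, was also in all 4 lists, with 7 peaks up to 4.27 at 336 to 704 nt. Eif4e, the cap-binding protein, reached 4.52 and Eif4ebp1, its inhibitor, 4.43. Eif3h, a subunit of the eIF3 complex, had 1 listed peak, 36670 nt into the gene (4.55).

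Among decay and repression factors other than Pum2 and Ddx6, 17 of 87 with a cluster (19.5%) had a listed peak, beside 10.8% of all genes. All listed peaks lay within 1500 nt in 10 of the 17, beside 43.3% of all listed genes. Several encode subunits of deadenylases. Cnot1, the scaffold of the CCR4-NOT complex, had 9 listed peaks up to 5.14, between 264 and 824 nt from the 5′ end. Cnot2, another subunit, reached 4.62, Cnot6l, a catalytic subunit, 4.49, and Pan3, of the PAN2-PAN3 deadenylase, 4.49. In neither list did a gene other than the members have fewer, or more, enriched peaks in every glucagon than in every control library.

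Relatives of the initiation factors were bound less or elsewhere. Eif4a2, the second eIF4A helicase, had 127 clusters, 7 of them enriched and all of those within 1500 nt of the 5′ end, but no listed peak. Eif4g1, the main eIF4G scaffold, had 410 clusters with 1 enriched and no listed peak. Eif4g3 had 1415 clusters, 42 enriched and 8 listed, which lay 1932 to 85069 nt from the 5′ end.

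Across libraries, the enriched peaks per 1000 enriched peaks of the library were compared with those of other genes, and the highest correlations are given. Over the 8 libraries, and among 707 genes with at least 10 enriched peaks, the highest Pearson r with Eif4a1 was 0.985 for Map3k1 and then 0.966 for Cpt1a. For Pum2 it was 0.943 for Rai1, 0.891 for Ankrd17 and 0.861 for Kdm2a, and for Ddx6 it was 0.864 for Stat5b, 0.861 for Ahdc1 and 0.856 for Chtf8. In Eif4a1 the measure was 8.17 in glucagon lower band replicate 1, the smallest library, and 1.84 to 4.62 in the others. Its r therefore leans on that library, and r without it was not computed. An r over 0.9 was reached by 18 of the 707 genes with Eif4a1, 1 with Pum2 and 0 with Ddx6. The correlations given are the highest of many. They are a description, since all genes share the libraries and their depth. Eif4g2 had too few enriched peaks for such a measure.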

How the data were processed

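The submitters' processing notes name cutadapt, STAR and the mm10 build, without versions. Neither the peak caller nor how reproducible peaks were picked is given in the sources used here. The deposited files have no header. Of their value columns, the first was read as the −log10 p-value of a cluster against input, capped at 400, and the second as the log2 fold over input, both deposited by the authors. Each of the 8 immunoprecipitated libraries has its own file, and the authors pooled replicates into 1 reproducible list per group. Input values were not analysed here.

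Clusters were placed by midpoint and strand in GENCODE M21, with coding sequence taken before UTRs (3′ before 5′) and those before introns. Enriched peaks had a −log10 p and a log2 fold of at least 3. Sites are listed peaks merged where they share 1 base. Coordinates are 1-based. Treatments were compared by exact permutation within bands (36 assignments) and intronic shares by exact sign flips (256). Both tests were tested on simulated data. Python 3.11.15, numpy 2.4.6, pandas 2.3.3 and matplotlib 3.10.9 were used.

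The members and gene lists were chosen with earlier results of these data known. Genes named beyond the members are, per list, the 5 with the highest listed log2 fold, the 3 most alike per member, nested small RNA genes and paralogs (Eif4a2, Eif4g1, Eif4g3). A few genes chosen this way are not reported here. Outside this rule, E030022I16Rik and Eif4a-ps4 were named after their values or annotation were seen. Alternatives covered thresholds, placement, scaling, small RNA clusters, single genes, single libraries and a replicate block. Without read counts, no counting intervals could be formed.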

Additional observations from a re-analysis of the deposited data

Results flagged for a closer look

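The number of enriched peaks of Eif4g2 was uneven among the control libraries. Control lower band replicate 2 had 4, and each of the other 3 control libraries had 1, so the gap from that library to the others was the whole range of the group. Of 15 groups of 4 libraries looked at in this way 1 stood out, and chance alone marks about 1 group in 20 for continuous values. Small whole counts with ties, as here, were not assessed separately. Its 4 peaks make up most of the 7 enriched peaks of the gene, and 3 peaks in 3 control libraries remain without it, still against 0 with glucagon. The library had 178308 clusters, fewer than the 2 control upper band libraries with 240002 and 260814.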

How the results depend on the processing

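The pooled intronic difference passed its exact test under each of the 20 alternatives tried. That includes the one within genes (21.5 points, chosen after seeing the data). Pum2 showed no excess of its own, and Eif4a1 could show none. The test covers the spread among libraries, which share their sites, and its result is not separate from the position of the peaks near the 5′ end. Values ranged from 19.6 points (noncoding exons counted as exons, chosen after seeing the data) to 52.2 points (Pum2 left out). With single libraries left out it was 38.3 to 42.8 points. The tests of cluster share between treatments or bands could not pass 0.05 under the main setting, and their directions were not stable. Counted without scaling to the library, glucagon minus control was −1.75 clusters in Eif4a1, −2.50 in Eif4g2, −26.0 in Pum2 and −12.25 in Ddx6, and upper minus lower band was 0.25 in Eif4a1 and 18.5 in Pum2. With only clusters past the p threshold and above input, it was −0.22 per 10000 in Eif4g2 and −0.037 in Ddx6 between treatments, and 0.020 in Eif4g2 between bands. The causes were not tested. Leaving out single libraries, the treatment difference ranged from 0.18 to 2.12 in Eif4a1, 0.17 to 2.06 in Eif4g2, −0.14 to 0.50 in Pum2 (negative without glucagon lower band replicate 1) and 0.060 to 0.763 in Ddx6. The band difference ranged from −2.09 to −0.15, −2.19 to −0.30, −0.81 to −0.18 and −0.15 to 0.55 in the same order, with Ddx6 negative without glucagon lower band replicate 2 or upper band replicate 1. Same-numbered libraries deviated together (r 0.173 to 0.615 over 4122 genes, 6 pairs of groups), but with 2 numbers this does not establish pairing. Replicate 1 had fewer clusters than replicate 2 in every group. With the replicate block the treatment difference in Eif4a1 stayed at 1.15 by construction, with exact p = 0.125, the smallest that 16 assignments allow, so no block could change a call. By same-numbered pairs, Eif4a1 and Ddx6 were higher with glucagon in 4 of 4 and Eif4g2 and Pum2 in 3 of 4, and Eif4a1, Eif4g2 and Pum2 were lower in the upper band in 4 of 4. Of the single-gene counts, enriched peaks at a log2 fold of at least 2 were 30 in Eif4g2 and 42 in Pum2, and at least 4 they were 0, 4 and, in Ddx6, 11. Eif4a1 had 14 sites in place of 7 under the stricter overlap for merging. In the smallest library 8 of the 19 sites had a cluster. Read depth is unknown, so its part was not tested.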
